A study of Homo sapiens with 4 samples.

Results

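The transcription factors that mark and maintain the prostate epithelial lineage were followed as a list of 7 genes, FOXA1, HOXB13, GATA2, GRHL2, SPDEF, ETV1 and CREB3L4, taken by Entrez Gene identifier. Of these, 6 were among the 19801 genes with a value in every library, and ETV1 was not analysed here. All 6 were among the 14626 genes kept by the filter used throughout, which asked for an RPKM of 1 or more in some library. The list was made from known roles, not from the values described here, although earlier results of these data were known when it was made.

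LNCaP, an androgen-sensitive human prostate cancer line, was transfected for 24 h with empty vector or with the AR1-651 plasmid. For the next 12 h the cells were left without AIL (ailanthone, a natural compound) or were given it. RNA-seq was done on 1 library per condition, and the 4 libraries are named by plasmid, with + AIL where the compound was added. The data therefore come from 1 cell line after a transient transfection, without replicates, so neither a p-value nor an SD could be given. Levels are RPKM, in which reads are divided by transcript length and by library size, so they may be compared between genes. Their sum still differed between libraries, from 502594 with empty vector to 646882 with AR1-651, so comparisons between libraries depend on the scaling described below. Differences are differences of log2(RPKM + 1), a scale that understates changes of low genes, and a gene was counted as higher or lower when it differed at least 2-fold on it. Sequencing depth is unknown, because RPKM does not give read counts.

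Genes of the prostate epithelium are switched on by several factors that bind their enhancers together. FOXA1 and GATA2 are pioneer factors that open chromatin at enhancers of androgen-regulated genes, and HOXB13 is a homeobox protein of the posterior body that is typical of the prostate. GRHL2 is a grainyhead factor that keeps epithelial genes active, SPDEF is an ETS factor of luminal and secretory epithelium, and CREB3L4 is a membrane-bound bZIP factor of the endoplasmic reticulum, first named for its induction by androgen.

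The 4 androgen-regulated genes reported here were higher in both libraries labelled AR1-651 than in the matching empty vector libraries. The serine protease KLK2 was 14.3, 11.6, 197.5 and 45.4 RPKM in the order empty vector without and with AIL and AR1-651 without and with AIL, and KLK3, which encodes prostate-specific antigen, was 286.6, 302.6, 1442 and 581.5. TMPRSS2, a membrane protease, was 36.7, 16.6, 275.6 and 65.1 RPKM, and the immunophilin FKBP5 was 7.04, 7.29, 62.2 and 19.5. Directions below follow the labels. All 7 luminal epithelial markers had RPKM of at least 1 in every library, with summed levels from 1597 to 3573 RPKM. Markers of other cell types were low. KRT14, the one basal marker of 4 with a row, was 0 to 0.21 RPKM. Neuroendocrine markers summed to 0.96 to 5.22 (4 of 5 with a row, mostly SYP, higher with AIL under both plasmids, CHGA at most 0.09). Stromal markers summed to 4.08 to 10.7 (5 of 5), mostly ACTA2 and COL1A1, with DCN at most 0.15. ACTA2 was 3.92, 8.49, 1.51 and 5.08 RPKM, higher with AIL under both plasmids. COL1A1 was 4.59, 2.21, 2.05 and 1.75, lower with AIL under both. Leukocyte markers summed to 8.67 to 12.7 (2 of 3, mostly CD68) and endothelial markers to 0.17 to 0.72 (2 of 3). Their part in the results was not tested.

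Scaling has to be read beside every value. The median difference of all genes kept was -0.30 on the log2 scale between AR1-651 and empty vector, and -0.09 after median-ratio scaling. Relative to the other genes, all AR1-651 differences without AIL therefore lie higher than the values as deposited. From AR1-651 to AR1-651 + AIL the median of all genes was 0.13, and -0.03 after this scaling. In the remaining comparisons the median lay between -0.08 and -0.02.

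The 6 factors were abundant in LNCaP. With empty vector HOXB13 was highest, followed by FOXA1, GATA2, SPDEF, CREB3L4 and GRHL2. The order was the same with empty vector + AIL except that CREB3L4 stood above SPDEF. In the library labelled AR1-651 it was CREB3L4, SPDEF, HOXB13, FOXA1, GATA2 and GRHL2, so that both factors that stood behind GATA2 and ahead of GRHL2 with empty vector came first. With AR1-651 + AIL HOXB13 was first again, followed by CREB3L4, FOXA1, GATA2, SPDEF and GRHL2. GRHL2 was lowest in all 4 libraries. With 1 library each there is no spread against which neighbours in this order could be separated. The summed level of the 6 factors was 708.7 RPKM with empty vector and 576 after AIL, and 666 with AR1-651 and 391.5 after AIL.

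**Figure D1:**
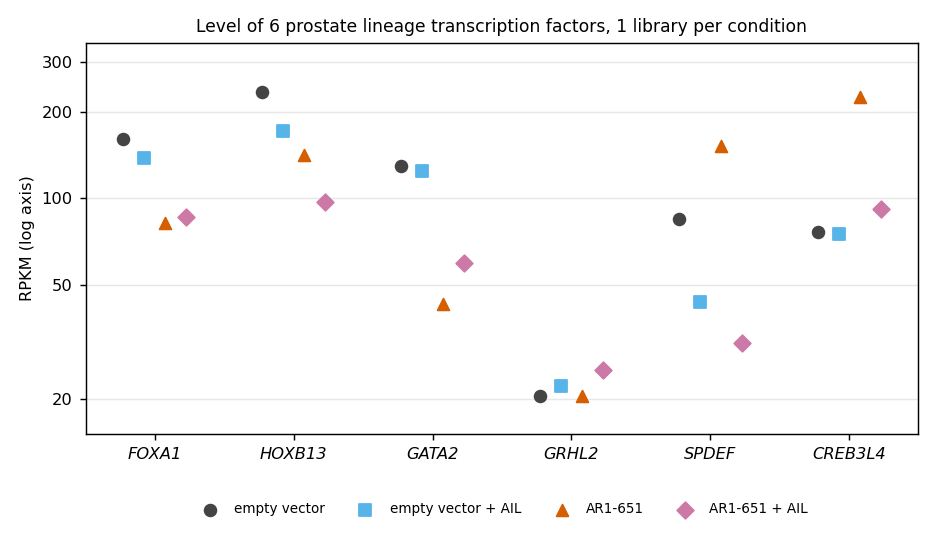
Level of each of the 6 factors (RPKM, log axis) in the 4 libraries, 1 point per library and no error bars because there is 1 library per condition. CREB3L4 and SPDEF peak in the library labelled AR1-651, at 226.5 and 153 RPKM, while FOXA1, HOXB13 and GATA2 are highest with empty vector and GRHL2 stays between 20.4 and 25.2.

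The promoters of FOXA1, GATA2 and SPDEF are printed because the first 2 genes were lower and the third higher in the library labelled AR1-651. Each is the 250 bases before the annotated start (RefSeq, GRCh38.p14), 5′ to 3′ on the strand of the gene, with the dinucleotide CG in capitals. Part of the FOXA1 window is an exon of a FOXA1 transcript without a coding part in GENCODE 29.
FOXA1, chr14:37595250-37595499, minus strand: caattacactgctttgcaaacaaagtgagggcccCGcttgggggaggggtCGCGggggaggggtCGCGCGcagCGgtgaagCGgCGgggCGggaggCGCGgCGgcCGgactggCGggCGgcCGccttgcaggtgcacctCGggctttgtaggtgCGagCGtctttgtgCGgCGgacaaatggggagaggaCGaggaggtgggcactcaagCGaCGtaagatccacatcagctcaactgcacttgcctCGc
GATA2, chr3:128493202-128493451, minus strand: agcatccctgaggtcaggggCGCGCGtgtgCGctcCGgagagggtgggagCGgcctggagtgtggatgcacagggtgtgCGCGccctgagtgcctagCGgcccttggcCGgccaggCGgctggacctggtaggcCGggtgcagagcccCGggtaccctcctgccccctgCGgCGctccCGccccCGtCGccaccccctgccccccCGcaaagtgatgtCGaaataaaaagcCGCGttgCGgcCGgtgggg
SPDEF, chr6:34556330-34556579, minus strand: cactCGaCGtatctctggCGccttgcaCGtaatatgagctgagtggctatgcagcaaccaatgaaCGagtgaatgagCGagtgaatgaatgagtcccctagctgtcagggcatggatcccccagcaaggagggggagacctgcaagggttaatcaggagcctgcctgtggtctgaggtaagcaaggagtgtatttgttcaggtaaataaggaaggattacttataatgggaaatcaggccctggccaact
The FOXA1 window had a GC content of 67.2% and 26 CG pairs, and the GATA2 window 72.8% and 24. The SPDEF window had 50.8% and 6, and that of CREB3L4, which is not printed because it overlaps untranslated exons, had 52% and 7. Over 14711 promoter windows of the same length the median was 63.2% GC and 19 CG pairs, with quartiles of 9 and 27 pairs. Nothing is read from these 4 windows about the differences between libraries, since they were chosen with those known. HOXB13 and GRHL2 windows are not shown.

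Of 10 motifs searched on both strands of these 4 windows, 1 matched. The CCAAT box (CCAAT) was found in SPDEF, 193 to 189 bases before the start, and in 34.4% of all windows. The letters of a single arm of the androgen response element (TGTTCT, 8.82% of all windows), of the full element that holds this arm (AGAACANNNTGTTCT, 0%), of the FOXA motif (TGTTTAC, 2.24%), of the GATA motif (AGATAA, 5.82%) and of the HOXB13 motif, which overlaps the CCAAT box (CCAATAAA, 0.741%), had no match. Nor had those of the grainyhead motif (AACCGGTT, 0.116%), the ETS motif (CCGGAAGT, 5.72%), the CRE (TGACGTCA, 2.49%) or the TATA box (TATAAA, 7.40%). These letters were not in these windows, which cover the start only.

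The comparison of AR1-651 with empty vector asked how these factors differ with the plasmid in the absence of AIL. CREB3L4 was higher and GATA2 lower at least 2-fold, FOXA1 and HOXB13 were lower by less, SPDEF was higher by less, and GRHL2 was level. At least 2-fold higher was thus 1 of 6 factors, beside 4.01% of all genes kept, and at least 2-fold lower was 1 of 6, beside 11.7%. The median over the 6 was -0.37, and that of all genes -0.30. In bulk RNA from transfected cells, a difference in every cell and a larger one in a share of the cells cannot be told apart.

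CREB3L4 (Entrez Gene 148327, chromosome 1, 153967534 to 153974363, plus strand in GENCODE 29 on GRCh38) was 76.1 RPKM with empty vector and 75.2 when AIL was added, and 226.5 with AR1-651 and 92.0 when AIL was added. One library, AR1-651, was high and the other 3 lay close together. The AR1-651 value was 3.01 times the lowest. The difference between AR1-651 and empty vector was 1.56 on the log2 scale, at the 99.0 percentile of all genes kept, with 143 genes at least as high (CREB3L4 included). After median-ratio scaling it was 1.83, and with ribosomal protein genes left out and the libraries rescaled it was 1.40. From AR1-651 to AR1-651 + AIL it was -1.29, against -0.02 between the empty vector libraries. Neighbours within 60 kb were chosen after their values were seen. CREB3L4 overlaps SLC39A1 (47.5 to 60.05 RPKM) and JTB (59.8 to 80.3 RPKM) in the RefSeq table, and neither differed by as much as 1.5-fold between AR1-651 and empty vector. The strand setting of the counting is not given in the sources used here, so reads of these overlapping genes may not be fully told apart. Of the other neighbours, RAB13 (1.08) and RPS27 (1.27) were higher in AR1-651 than with empty vector, and GATAD2B (-1.002), DENND4B (-1.002) and CRTC2 (-0.80) were lower.

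SPDEF (Entrez Gene 25803, chromosome 6, 34537802 to 34556333, minus strand) was 84.6 RPKM with empty vector and 43.4 when AIL was added, and 152.9 with AR1-651 and 31.4 when AIL was added. Both libraries with AIL were low, and AR1-651 stood above empty vector. The highest value was 4.88 times the lowest, the widest range of the 6 factors. The AR1-651 difference without AIL was 0.85, at the 94.1 percentile, and passed 2-fold after median-ratio scaling, where it was 1.11. It stayed short of 2-fold without ribosomal protein genes (0.68) and with the trend of transcript length removed (0.93). With AIL the same difference was -0.46, of the opposite sign, but 0.0073 with the trends of length and GC content removed, so the opposite sign is not stable. The AIL difference was -0.95 with empty vector and -2.25 with AR1-651, the latter at the 0.533 percentile, with 78 genes at least as low (SPDEF included). The neighbours PACSIN1 (9.97, 5.35, 6.77 and 4.2 RPKM) and ILRUN (21.8, 17.2, 20.3 and 14.1 RPKM) were highest with empty vector.

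Genes higher with AR1-651 and lower again with AIL were a group that CREB3L4 belonged to. Of 586 genes at least 2-fold higher with AR1-651, 151 were at least 2-fold lower from AR1-651 to AR1-651 + AIL. Both counts use the same AR1-651 library and are not independent. SPDEF, at 0.85, fell short of the first limit.

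GATA2 (Entrez Gene 2624, chromosome 3, 128479427 to 128493185, minus strand) was 129.9 RPKM with empty vector and 124.5 when AIL was added, and 42.9 with AR1-651 and 59.65 when AIL was added. Both libraries labelled AR1-651 were low and both with empty vector were high, with or without AIL. The AR1-651 difference was -1.58 without AIL, at the 1.74 percentile with 254 genes at least as low (GATA2 included), and -1.05 with AIL. After median-ratio scaling these were -1.31 and -0.99, the latter no longer past 2-fold. GATA2-AS1, which overlaps GATA2, was 39.6, 26.6, 23.9 and 23.1 RPKM in the same order. The library kit is stranded, but the strand setting of the counting is not given in the sources used here, so reads of the 2 genes may not be fully told apart.

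FOXA1 (Entrez Gene 3169, chromosome 14, 37589984 to 37596059, minus strand) was 161.9 RPKM with empty vector and 138.5 when AIL was added, and 82.2 with AR1-651 and 86.1 when AIL was added. The libraries again split by plasmid, and differed little with AIL within a plasmid. The difference with AR1-651 was -0.97, just short of 2-fold, and the AR1-651 level was 50.8% of that with empty vector. It was -1.13, past 2-fold, without ribosomal protein genes, and -0.70 after median-ratio scaling. With AIL the difference was -0.68. Between the AR1-651 libraries AIL gave 0.06, and -0.15 after median-ratio scaling, so this small difference has no stable sign.

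HOXB13 (Entrez Gene 10481, chromosome 17, 48724763 to 48729178, minus strand) was 235.7 RPKM with empty vector and 172.7 when AIL was added, and 141.3 with AR1-651 and 97.2 when AIL was added. It was lower with AR1-651 and lower with AIL in every pairing, so the library with both was lowest. The AR1-651 difference was -0.73 without AIL, at the 23.5 percentile, where the median of all genes was -0.30. It was -0.47 after median-ratio scaling and -0.27 with the trends of length and GC content removed. With AIL the AR1-651 difference was -0.82, at the 7.46 percentile, and -0.77 and -0.41 under the same settings. The AIL difference was -0.45 with empty vector and -0.54 with AR1-651. Each single step was below 2-fold, and AR1-651 + AIL against empty vector was -1.27. PRAC1 and PRAC2, small prostate genes next to HOXB13, were both lowest with empty vector, where HOXB13 was highest. PRAC1 was 148.5, 153.9, 284.1 and 182.9 RPKM and PRAC2 was 21.6, 29.9, 35.4 and 34.4. TTLL6, farther away, was highest with empty vector as HOXB13 was, at 2.31, 1.63, 0.94 and 1.17 RPKM.

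GRHL2 (Entrez Gene 79977, chromosome 8) was 20.5 RPKM with empty vector and 22.1 when AIL was added, and 20.4 with AR1-651 and 25.2 when AIL was added. As deposited, it was the most even of the 6 factors, and no comparison exceeded 0.29 on the log2 scale. With the trends of length and GC content removed it was 0.53 in AR1-651 against empty vector and 0.71 in AR1-651 + AIL against empty vector. Its AR1-651 difference was -0.0040 as deposited and 0.25 after median-ratio scaling. The AIL difference with AR1-651 was 0.29, and -0.02 with the trend of transcript length removed, so neither has a stable sign.

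**Figure D2:**
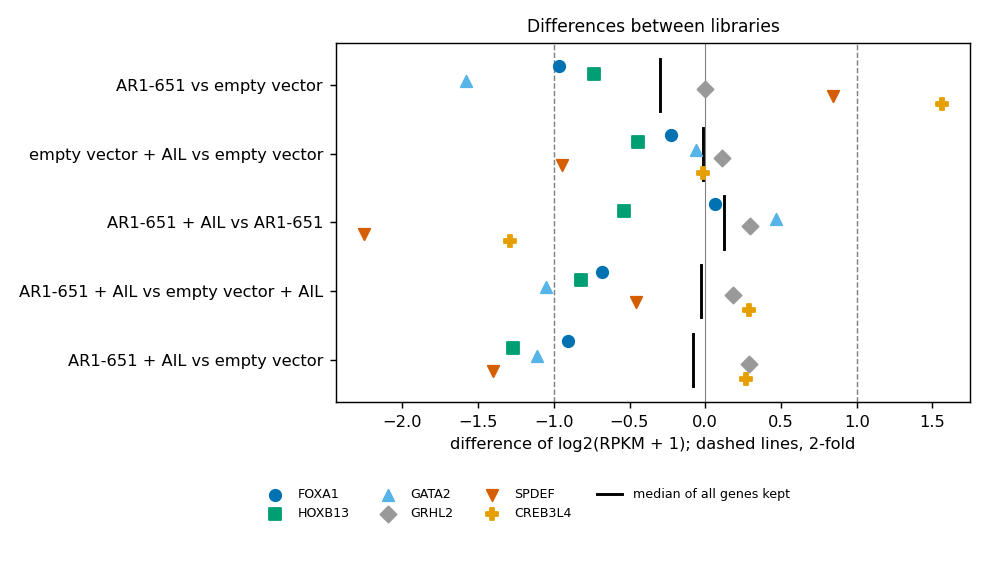
Difference of log2(RPKM + 1) for each of the 6 factors in the 5 comparisons, with dashed 2-fold limits and a black bar at the median of all genes kept, 1 library per condition and no error bars. Without AIL, CREB3L4 (1.56) and GATA2 (-1.58) pass 2-fold in opposite directions in AR1-651 against empty vector, and SPDEF (-2.25) and CREB3L4 (-1.29) are the factors past it from AR1-651 to AR1-651 + AIL.

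AIL was compared within each plasmid to ask how it alters the factors with and without AR1-651. With empty vector none of the 6 passed 2-fold, beside 9.53% of all genes higher and 9.03% lower. SPDEF, at -0.95, was nearest. With AR1-651, 0 of 6 were at least 2-fold higher, beside 14.9% of all genes, and 2 of 6, SPDEF and CREB3L4, were lower, beside 5.74%. The difference of the 2 AIL responses was -1.30 for SPDEF and -1.27 for CREB3L4, -0.09 for HOXB13, 0.18 for GRHL2, 0.29 for FOXA1 and 0.53 for GATA2. These were not tested. Over the alternatives run, SPDEF stayed at or below -1.15 and CREB3L4 at or below -1.13. HOXB13 turned to 0.06 without ribosomal protein genes and GRHL2 to -0.02 after median-ratio scaling, which also gave 0.08 for FOXA1 and 0.32 for GATA2. GRHL2 was -0.29 with the trend of transcript length removed, and -0.10 with the trends of length and GC content removed.

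**Figure D3:**
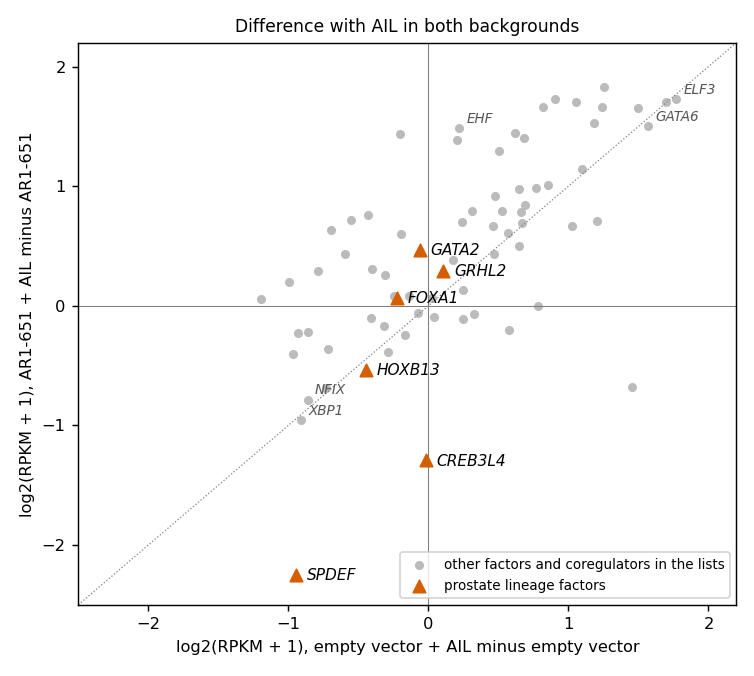
AIL difference with AR1-651 against AIL difference with empty vector, both on the log2(RPKM + 1) scale, for the 6 factors (triangles) and the genes of the related lists (grey points), with a dotted line of equal differences and 1 library per condition. SPDEF and CREB3L4 lie lowest on the AR1-651 axis, at -2.25 and -1.29, while most genes of the lists lie above 0.

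With AIL present, AR1-651 against empty vector gave 0 of 6 factors higher, beside 1.46% of all genes, and 1 of 6 lower, beside 3.56%. The lower one was GATA2. Against untreated empty vector, AR1-651 + AIL gave 0 higher, beside 12.6%, and 3 lower, beside 15.8%. These were SPDEF at -1.40, HOXB13 at -1.27 and GATA2 at -1.11, with FOXA1 at -0.90 below the limit. All 3 calls were lost with the trends of length and GC content removed, and FOXA1 (-1.03) joined them when ribosomal protein genes were left out and the libraries rescaled. The median over the 6 was -1.01, against -0.08 over all genes. CREB3L4 (0.27) and GRHL2 (0.29) were slightly higher in that comparison.

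A limit of 1.5-fold adds the smaller differences. In AR1-651 against empty vector, 2 of 6 (CREB3L4 and SPDEF) were then higher, beside 10.7% of all genes, and 3 lower, beside 32.3%. With empty vector, AIL gave 0 higher, beside 21.0%, and 1 lower, beside 22.1%. With AR1-651, AIL gave 0 higher, beside 28.6%, and the same 2 factors lower, beside 14.7%. In AR1-651 + AIL the counts were 0 higher (7.74%) and 3 lower (15.6%) against empty vector + AIL, and 0 higher (23.8%) and 4 lower (29.2%) against untreated empty vector.

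Transcript length moved with the differences in AR1-651 against empty vector. In bins of equal size by length, the median over all genes was 0.07 in the shortest bin (median 515 nt), 0.24 in the next (1033 nt) and -0.81 in the longest (7922 nt). CREB3L4 (1557 nt) and SPDEF (1880.5 nt) are shorter than FOXA1 (2862 nt), HOXB13 (3467 nt), GATA2 (2525 nt) and GRHL2 (5232 nt). The trend at FOXA1 was -0.29 and at GRHL2 -0.59. With the trend removed, GATA2 was -1.35, FOXA1 -0.68, HOXB13 -0.34 and GRHL2 0.58. The part of length in these differences was not tested. With the trends of length and GC content removed together, CREB3L4 was 1.53, SPDEF 1.16 and GATA2 -1.14, and from AR1-651 to AR1-651 + AIL SPDEF was -2.12 and CREB3L4 -1.27. The same removal left none of the 3 factors past 2-fold in AR1-651 + AIL against empty vector, where SPDEF was -0.97, HOXB13 -0.71 and GATA2 -0.55.

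**Figure D4:**
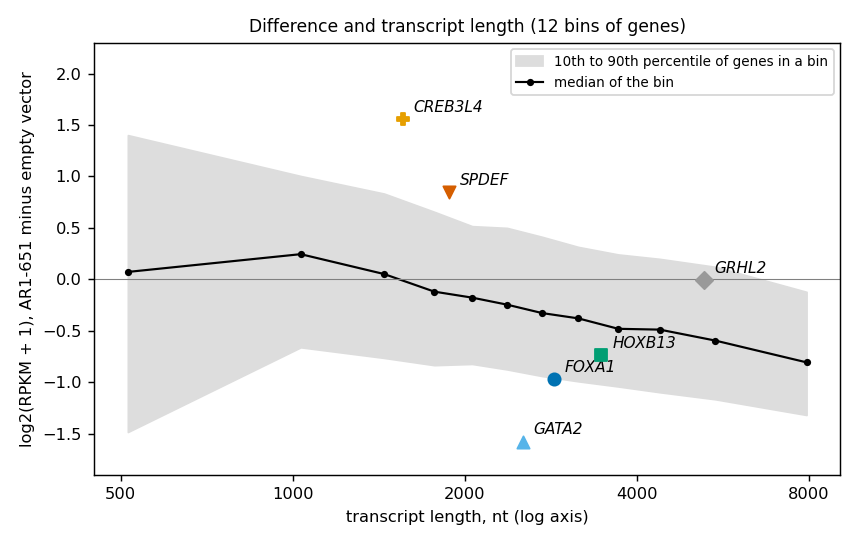
Difference of log2(RPKM + 1) between AR1-651 and empty vector against transcript length (nt, log axis) for the 6 factors, with the median and the 10th to 90th percentile over all genes kept in bins of equal size by length. The median falls from 0.24 near 1033 nt to -0.81 near 7922 nt. CREB3L4 (1.56) and SPDEF (0.85) lie above the 10th to 90th percentile band at their lengths, GATA2 (-1.58) lies below it, FOXA1 (-0.97) lies at its lower edge, and HOXB13 and GRHL2 lie inside.

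Each factor was also matched with the genes whose 4 values, centred on their mean, were nearest by Euclidean distance, among 7496 genes with RPKM of at least 5 in every library. The nearest to SPDEF were the endoplasmic reticulum chaperone HYOU1 (0.30), the stress-responsive NDRG1 (0.34) and the autophagy gene WIPI2 (0.37), and 12 genes lay within 0.5. Nearest to CREB3L4 were ANKRD37 (0.15) and the ribosomal protein genes RPL34 (0.16) and RPL39 (0.18), with 89 within 0.5. For GATA2 they were LOC100288162 (0.08) and the splicing factor SRRM2 (0.16), with 117. FOXA1 (LINC01160 0.03, USP22 0.04, POLR1A 0.05), HOXB13 (MMP24OS 0.05, CHMP1A 0.06, ATP6V0C 0.06) and GRHL2 (PSMB1 0.04, WDR12 0.04, CASP9 0.05) had 759, 764 and 1883 such genes. SPDEF thus had the fewest genes within 0.5 and GRHL2 the most, but these counts also depend on how widely a gene ranged. The range of log2(RPKM + 1) over the libraries was 2.25 for SPDEF, the widest, and 0.29 for GRHL2, the narrowest. Among the factors themselves FOXA1 and HOXB13 were 0.46 apart, FOXA1 and GATA2 0.58, SPDEF and CREB3L4 1.19, and GATA2 and CREB3L4 2.56.

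Paralogs and partners of the factors came from 8 lists with 96 genes, of which 86 had a row and 66 were kept. In AR1-651 against empty vector 1 of the 66 was at least 2-fold higher and 18 lower (median -0.62), beside 4.01% and 11.7% of all genes. The 18 became 8 after median-ratio scaling and 3 with the trend of transcript length removed. In AIL against untreated with empty vector 12 were higher and 1 lower (0.28), beside 9.53% and 9.03%. From AR1-651 to AR1-651 + AIL 18 were higher and 0 lower (0.62), beside 14.9% and 5.74%. Beside them SPDEF and CREB3L4, both lower there, differed in the other direction from most of the lists, whose lowest gene was XBP1 at -0.95. In AR1-651 + AIL 1 was higher and 7 lower against empty vector + AIL (1.46% and 3.56% of all genes), and 10 were higher and 11 lower against empty vector (12.6% and 15.8%).

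The ETS family of SPDEF had 18 genes kept. In AR1-651 against empty vector 1 was higher and 2 lower, beside 4.01% and 11.7% of all genes. From AR1-651 to AR1-651 + AIL 7 were higher and 0 lower, beside 14.9% and 5.74%. ELF3, an epithelial ETS factor, was 26.0, 91.0, 20.8 and 71.3 RPKM in the order used above. It was high in both libraries with AIL, where SPDEF was low. EHF, another epithelial ETS factor, was 70.6, 82.4, 45.5 and 128.9 RPKM, and ELF1 was 2.76, 7.99, 2.89 and 12.9. ELF2, a relative of ELF1, was 7.78, 18.9, 10.5 and 32.1 RPKM. Other ETS genes were lower with AIL under both plasmids, as SPDEF was, among them ELK1 (-0.73 with empty vector and -0.69 with AR1-651), SPIB (-0.93 and -0.23) and ELF4 (-0.17 and -0.25), which were picked after their values were seen. The CREB3/ATF6 family had 4 genes kept, none past 2-fold in AR1-651 against empty vector, beside 4.01% of all genes higher and 11.7% lower. CREB3, a membrane-bound relative of CREB3L4, was 45.6, 68.3, 84.1 and 73.1 RPKM. It was highest in the AR1-651 library, as CREB3L4 was, but differed less. CREB3L2 was 6.79, 5.37, 4.05 and 2.87 RPKM and ATF6B, a sensor of endoplasmic reticulum stress, was 10.7, 5.44, 5.03 and 4.19, both highest with empty vector.

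GATA6, the GATA relative kept, was 2.84, 10.4, 0.81 and 4.13 RPKM, lower with AR1-651 than with the matching empty vector library, as GATA2 was, and at least 2-fold higher with AIL under both plasmids, as GATA2 was not. HOXC13, a posterior homeobox gene, was 23.4, 34.2, 7.63 and 14.0 RPKM, also low in both libraries labelled AR1-651. HOXB7, from the same cluster as HOXB13, was at most 1.54 RPKM. Of the grainyhead relatives, GRHL1 was 4.49, 8.67, 3.13 and 12.1 RPKM and GRHL3 was 0.88, 2.82, 1.21 and 2.51, both well below GRHL2. UBP1, a broadly expressed relative, was 22.5, 17.9, 17.0 and 15.1 RPKM, a level like that of GRHL2. FOXA3, the FOXA relative with a row, was at most 0.19 RPKM and not kept.

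Of 19 transcriptional coregulators kept, 0 were higher and 9 lower in AR1-651 against empty vector, with a median of -0.97. Of all genes, 4.01% were higher and 11.7% lower. Most of these transcripts are long, and the median of all genes was -0.60 and -0.81 in the longest bins of the length comparison (5489 and 7922 nt). The part of length in this count was not tested for the coregulators alone. The chromatin remodelling ATPase SMARCA4 was 39.2, 23.5, 16.4 and 12.6 RPKM. The coactivator NCOA4 was level between the plasmids, at 48.7, 78.0, 46.2 and 75. The coactivators NCOA3 (4.76, 8.24, 2.1 and 7.21) and TRIM24 (11.9, 18.8, 5.36 and 16.3) were lowest in the AR1-651 library and higher with AIL. Among the 19 other factors kept, 0 were higher and 5 lower in AR1-651 against empty vector, beside 4.01% and 11.7% of all genes. Some of their transcripts are long too, such as ONECUT2 (16121 nt) and POU2F1 (13925 nt), and the part of length was not tested there either. The mineralocorticoid receptor gene NR3C2 was 2.55, 6.38, 1.54 and 7.29 RPKM. SOX4, an HMG-box factor, was 51.3, 97.1, 30.0 and 101.7 RPKM, high in both libraries with AIL. NFIX, a nuclear factor I protein, was 156.9, 86.0, 62.7 and 36 RPKM, lower with AR1-651 and lower with AIL as HOXB13 was. XBP1, the bZIP factor of the unfolded protein response, was 221.6, 117.6, 203.9 and 104.7 RPKM, low in both libraries with AIL. SPDEF was also low in those libraries, but was higher with AR1-651 than with empty vector, where XBP1 was not.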

How the data were processed

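Per the labels, LNCaP RNA was sequenced as 1 library per condition. The authors aligned the reads and deposited RPKM values per gene, rounded to 2 decimals. The submitters' processing notes name BWA 0.7.10-r789 and hg19, while the counting tool and annotation release are not given in the sources used here. The labels name both a Ribo-Zero kit and oligo(dT) selection. Depth is unknown. Symbols came from a RefSeq table (GRCh38.p14, 19703 genes matched by Entrez Gene identifier), and lengths and GC content from GENCODE 29 through RefSeq identifiers (95.8% of kept genes). Positions are on GRCh38. They were used to choose neighbours, overlaps and promoter windows, and entered no level or difference.

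Differences of log2(RPKM + 1) were computed for the 14626 genes that reached an RPKM of 1 in any library, and counted at 2-fold. With 1 library per condition no test was made. The design named 7 factors, of which 6 had a row. Members and lists were chosen with earlier results of these data known. The text names every member, KLK3, KLK2, TMPRSS2 and FKBP5, the nearest 3 genes per member, and per list the gene with the highest mean and up to 3 with the largest differences past 2-fold. FOXA3 and the neighbours were added after their values were seen. Some genes that this rule or the check of the labels would name are not reported here.

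Alternatives were median-ratio scaling, a pseudocount of 0.1, no filter or one at an RPKM of 5, a limit of 1.5-fold, no ribosomal protein genes (86 left out), and removal of the trend with length (degree 3 polynomial in its rank). Removal with length and GC content together was chosen after seeing the data. Scripts were tested on simulated data. Python 3.11.15, NumPy 2.4.6, pandas 2.3.3 and Matplotlib 3.10.9 were used.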

Additional observations from a re-analysis of the deposited data

Results flagged for a closer look

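Several genes had differences of opposite sign in the 2 backgrounds, on the log2(RPKM + 1) scale. The difference between backgrounds was not tested in any of them, as there is 1 library per condition. The AIL difference was -0.22 with empty vector and 0.06 with AR1-651 for FOXA1 (0.29 apart), and -0.06 and 0.47 for GATA2 (0.53 apart). For CREB3 it was 0.57 and -0.20 (-0.77 apart), for KLK3 0.08 and -1.31 (-1.39 apart), and for FKBP5 0.04 and -1.63 (-1.67 apart). The AR1-651 difference was 0.85 without AIL and -0.46 with AIL for SPDEF (-1.30 apart), and -0.0040 and 0.18 for GRHL2 (0.18 apart). Of these, the effects of FOXA1 with AR1-651 and of GRHL2 without AIL changed sign after median-ratio scaling, and that of SPDEF with AIL became 0.0073 with the trends of length and GC content removed, which ends its opposite signs. The FKBP5 and KLK3 effects with empty vector were also near 0.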

How the results depend on the processing

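No paired analysis was possible because each condition has 1 library and leaving one out leaves no comparison. No member difference reversed its direction once called. For AR1-651 + AIL against empty vector, 10 of 66 list genes were higher and 11 lower, beside 12.6% and 15.8% of all genes. These counts became 12 and 10 after median-ratio scaling. They became 11 and 7 with the length trend removed, and 20 and 18 with a limit of 1.5-fold. With a limit of 1.5-fold, 5 factors passed in AR1-651 against empty vector (2 at 2-fold), 1 in empty vector + AIL against empty vector (0), and 3 in AR1-651 + AIL against empty vector + AIL (1). SPDEF also made it 1 in empty vector + AIL against empty vector without ribosomal protein genes and with the length trend removed. In AR1-651 + AIL against empty vector + AIL, where GATA2 was the 1 factor past 2-fold, 0 passed under median-ratio scaling, with the length trend removed, and with the length and GC trends removed. The last setting also left 0 of 3 in AR1-651 + AIL against empty vector. There the AR1-651 difference of SPDEF with AIL was 0.0073, against -0.46. The 1.5-fold limit gave 37, 36, 39, 21 and 38 of 66 list genes past it, against 19, 13, 18, 8 and 21 at 2-fold. The order is AR1-651 against empty vector, then empty vector + AIL against empty vector. After these come AR1-651 + AIL against AR1-651, against empty vector + AIL, and against empty vector. Higher and lower at 1.5-fold, the list counts were 3 and 34, 24 and 12, 35 and 4, 5 and 16, and 20 and 18. The shares of all genes were 10.7% and 32.3%, 21% and 22.1%, and 28.6% and 14.7%. For the rest they were 7.74% and 15.6%, and 23.8% and 29.2%. At 2-fold in AR1-651 against empty vector, median-ratio scaling gave 10 of 66 and removal of the length trend 4 of 65. Depth is unknown, so counting error could not be given for any level.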
